A study of Mus musculus with 9 samples.

Results

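The transcripts of 7 genes through which inflamed tissue calls neutrophils were followed in mouse colorectum: the CXC chemokines Cxcl1, Cxcl2, Cxcl3 and Cxcl5, their receptors Cxcr1 and Cxcr2, and Csf3, which encodes granulocyte colony-stimulating factor (G-CSF). The genes were listed by name for their known role, with earlier results of these data known. The shares of all genes given beside their counts are therefore a description. All 7 of 7 had a row among the 21498 gene symbols of the files, and 6 of 7 were among the 15278 genes tested, which reached at least 0.1 FPKM in at least 3 samples. Cxcr1 did not.

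RNA from 9 male mice of the outbred ICR strain, which entered the study at an age of 5 weeks, was sequenced at the end of week 18. The 3 groups held 3 mice each, numbered as biological replicates. Control mice received neither carcinogen nor antibody, and their tissue is labelled normal colorectal mucosa. Mice of the other groups received 1 intraperitoneal injection of azoxymethane (AOM, 10 mg/kg), a carcinogen that acts on the colon, and then 3 cycles of dextran sulfate sodium (DSS), a drinking-water agent that injures the colonic lining (2% for 7 days in the opening cycle and 1.5% for 5 days in each later cycle). During the DSS cycles they were injected intravenously at 1.5 mg/kg with a negative control IgG (AOM/DSS + IgG Ab, the IgG group) or with an antibody against S100a9, a calcium-binding protein abundant in neutrophils (AOM/DSS + anti-S100a9 Ab, the anti-S100a9 group). The labels call the tissue of both AOM/DSS groups colorectal adenocarcinoma. The paper, however, speaks of colon mucosa for the anti-S100a9 group and reports fewer tumours in mice given that antibody. How much tumour each sample held is not stated. A difference in the tissue sampled and an effect of the antibody therefore cannot be told apart. The comparisons ask how far the neutrophil-attracting transcripts differ between AOM/DSS tissue and normal mucosa, and how far they differ with the antibody.

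In mice, Cxcl1, Cxcl2, Cxcl3 and Cxcl5 are secreted by epithelial, stromal and myeloid cells after injury or microbial stimulation and bind CXCR2 on neutrophils, which then leave the blood and move along the gradient. CXCR1 is the related receptor, with fewer ligands in mice. G-CSF acts mainly at a distance: it raises neutrophil production in the bone marrow and their release into blood. In colitis and in colitis-driven tumours this axis is known as a main route of neutrophil entry.

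The values are FPKM, fragment numbers scaled by transcript length and by the depth of the library, a scale meant for setting levels of different genes side by side. Differences are given on the scale of log2(FPKM + 0.1), which understates the change of genes near the bottom of the range, and were tested with limma, with Benjamini-Hochberg adjustment over all 15278 genes. A gene is called changed when its adjusted p is under 0.05. The steps between the lowest values put the depth at about 25500000 to 33800000 fragments a sample, an estimate and not a deposited number. Gapdh, Ppia and Rps18, which every cell uses, did not exceed 0.975 FPKM in any sample, and Rps18 was listed at 0 in some. Levels of different genes may therefore not be dependable in these files, and orders and shares across genes are given as the files list them. A value of 0 is reported as listed at 0, and no fold is given against a group listed at 0 throughout. Colon epithelium markers (Epcam, Cdh1, Krt8, Krt18, Krt20, Vil1, Cdx1, Cdx2, Car1 and Muc2) summed to between 2514 and 3845 FPKM in every sample. Of these 10, Krt18 was called higher in the IgG group than in Control and lower with anti-S100a9 Ab (220 ± 49.1, 509 ± 151 and 183 ± 8.60 FPKM, adjusted p = 0.0256 and 0.0129), and Car1 lower and then higher (276 ± 47.5, 50.1 ± 32.4 and 361 ± 316 FPKM, adjusted p = 0.0331 and 0.0244). IgG replicate 1 stood apart by low smooth muscle marker transcripts (279 FPKM, against 594 and 1807 in the other IgG samples). It also had the lowest neutrophil and fibroblast marker sums of its group, the latter 616 FPKM against 2093 and 1504. Muc2 was at 51.6 FPKM there, against 398 and 461, and the squamous epithelium marker sum was the highest of the group, at 46.5 FPKM. IgG replicate 3 stood apart by Cxcl3 and Csf3, as described with those genes.

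The 4 ligand genes lie within 1 stretch of chromosome 5 on the plus strand (GRCm38, GENCODE M21). In order along the chromosome they are Cxcl5 (chr5:90759360-90761624), Cxcl3 (chr5:90786103-90789600), Cxcl1 (chr5:90891241-90893115) and Cxcl2 (chr5:90903871-90905938). Csf3 lies apart on chr11:98701263-98703629, plus strand. The receptor genes neighbour each other on chromosome 1, Cxcr2 on the plus strand at chr1:74153989-74161246 and Cxcr1 on the minus strand at chr1:74191785-74194631.

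The promoters of 5 of the 7 genes were found in the RefSeq promoter table (GRCm38.p6), those of Cxcl1, Cxcl2, Cxcl3, Cxcr1 and Cxcr2. The 110 bases before the start of each of the 3 ligand genes are shown because they share 2 runs of at least 8 letters at nearly the same distance from the start. Capitals mark these runs, GGGAATTTCCC, which holds a κB sequence of the kind to which NF-κB proteins bind, and ATAAAAGG, which resembles a TATA box.
Cxcl1 (chr5:90891131-90891240, plus strand): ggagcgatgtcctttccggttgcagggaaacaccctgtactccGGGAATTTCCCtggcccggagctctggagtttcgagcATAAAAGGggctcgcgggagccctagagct
Cxcl2 (chr5:90903761-90903870, plus strand): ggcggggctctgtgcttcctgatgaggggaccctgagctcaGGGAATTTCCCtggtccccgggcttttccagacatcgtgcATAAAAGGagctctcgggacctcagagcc
Cxcl3 (chr5:90785991-90786100, plus strand): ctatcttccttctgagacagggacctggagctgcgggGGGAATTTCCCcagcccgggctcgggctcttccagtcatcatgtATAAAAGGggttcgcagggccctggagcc

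GGGAATTTCCC began 67 bases before the start of Cxcl1, 69 bases before that of Cxcl2 and 73 bases before that of Cxcl3, and ATAAAAGG began 30, 29 and 29 bases before. Searched on both strands over the 300 bases that the table gives for each promoter, GGGAATTTCCC was present in 14 of 32851 promoters (0.0426%) and ATAAAAGG in 577 (1.76%). The promoters of Cxcl1, Cxcl2 and Cxcl3 were the only 3 in the table (0.00913%) with both, and as the runs were read from these very promoters, that count is a description. The wider κB consensus, which overlaps GGGAATTTCCC in all 3 ligand promoters, was present in 8.46% of promoters, and the AP-1 sequence TGANTCA in 7.81%. TGANTCA was in none of the 3, and none of these motifs was in the windows of Cxcr1 and Cxcr2. Aligned on GGGAATTTCCC without gaps, the Cxcl1 window was identical to that of Cxcl2 at 41.7% of positions and to that of Cxcl3 at 41.3%, and the Cxcl2 and Cxcl3 windows at 29.2%. These matches describe letters in a window and are no measure of binding.

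In the IgG group all 4 ligand transcripts and Cxcr2 were higher than in normal mucosa, Cxcl5 most in absolute level, and in the anti-S100a9 group the same 5 transcripts were lower than in the IgG group. Against Control, 5 of 6 tested members were called higher in the IgG group, where 8.18% of all genes tested were. Between the antibody groups, 5 of 6 were called lower in the anti-S100a9 group, where 14.4% of all genes tested were. Csf3 did not pass in either. Every IgG sample was above every Control sample for 6 of 6 tested members, as for 20.7% of all genes tested, and every anti-S100a9 sample was below every IgG sample for 6 of 6, as for 28.5% of all genes tested. These comparisons share the IgG samples, so the values below stand side by side and are no independent support for each other. Cxcl3 reached 0.1 FPKM in the IgG samples alone and so passed the filter only through the group where it is high. Its order between the groups was thereby fixed in advance, and Cxcl3 adds no support to these counts.

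**Figure D1:**
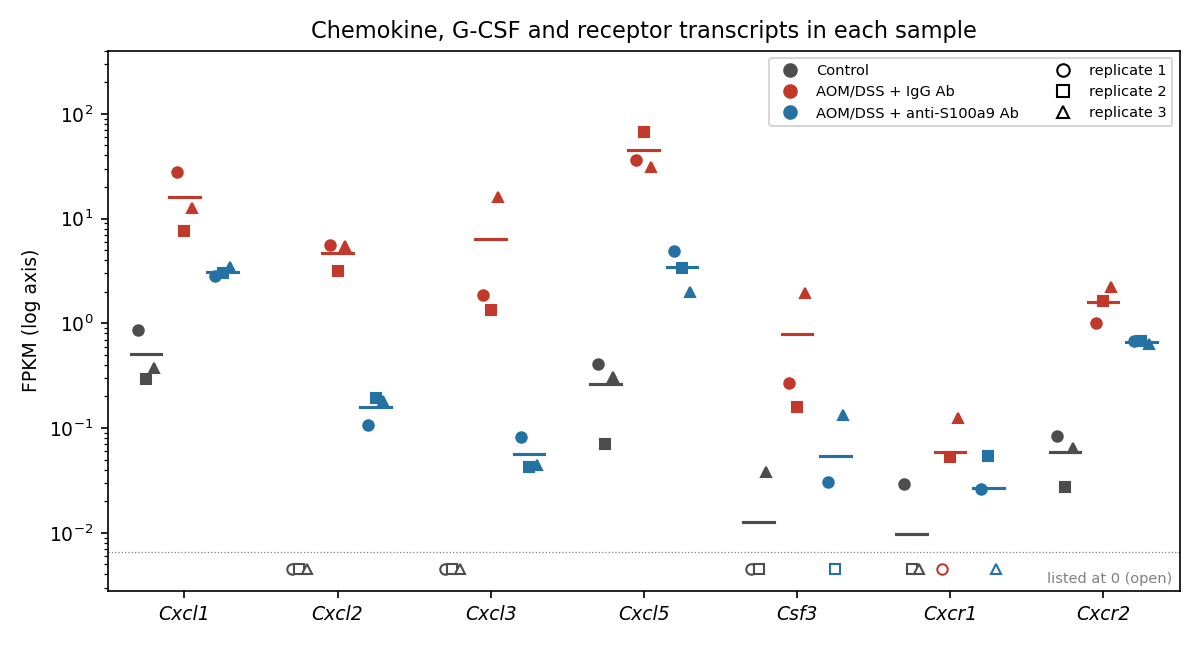
FPKM of the 7 transcripts in each of the 9 samples, on a log axis; marker shapes are replicates, short lines group means, and open symbols at the bottom values listed at 0. The IgG samples lie above the Control and the anti-S100a9 samples for every gene but Cxcr1, and Cxcl2 and Cxcl3 are listed at 0 in all 3 Control samples.

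Cxcl1, the mouse chemokine also called KC, was at 0.868, 0.294 and 0.374 FPKM in Control replicates 1 to 3, at 28.1, 7.56 and 12.6 FPKM in the IgG group, and at 2.80, 3.02 and 3.41 FPKM in the anti-S100a9 group. The 3 groups did not overlap, and the anti-S100a9 samples lay between the other groups, close to each other. The mean rose from 0.512 ± 0.311 FPKM (SD, n = 3) in Control to 16.1 ± 10.7 in the IgG group, a log2 difference of 4.63 (SE 0.48, limma adjusted p = 0.00124). It fell to 3.08 ± 0.311 FPKM with anti-S100a9 Ab, a log2 difference of −2.14 (SE 0.48, adjusted p = 0.0209). That call missed the threshold when any anti-S100a9 sample was left out (adjusted p 0.0559 to 0.0698).

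Cxcl2, also called MIP-2, was listed at 0 in all 3 Control samples, where 1 fragment would be worth about 0.0376 to 0.0431 FPKM. Levels in IgG replicates 1 to 3 were 5.56, 3.16 and 5.42 FPKM, and in the anti-S100a9 group 0.106, 0.194 and 0.181 FPKM. Every IgG sample was far above every other sample, and the anti-S100a9 values correspond to only about 3 to 6 fragments each. The IgG group differed from Control at an adjusted p of 0.000252. From 4.71 ± 1.35 FPKM in the IgG group the mean fell to 0.160 ± 0.0474 FPKM with anti-S100a9 Ab, a log2 difference of −4.18 (SE 0.30, adjusted p = 0.000964), and this call held in all 9 fits that left out 1 sample.

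Cxcl3 had the same pattern of presence as Cxcl2 with a much wider spread. It was listed at 0 in the 3 Control samples and was at 1.87, 1.33 and 16.0 FPKM in IgG replicates 1 to 3 and at 0.0828, 0.0421 and 0.0444 FPKM in the anti-S100a9 group. IgG replicate 3 alone carried most of the group's Cxcl3, 12.0 times the lowest sample, yet the lowest IgG sample was still well above every anti-S100a9 sample, which rest on about 1 or 2 fragments each. The IgG group differed from Control at an adjusted p of 0.00545. The antibody groups differed by −4.52 (SE 0.77, adjusted p = 0.00991) on the log2 scale, with means of 6.39 ± 8.30 and 0.0564 ± 0.0229 FPKM. When any IgG sample was left out, Cxcl3 reached 0.1 FPKM in too few samples to be tested. Cxcl1, Cxcl2 and Cxcl3 are related in sequence, and how fragments that match more than 1 of them were assigned is not given in the sources used here.

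Cxcl5, also called LIX, was the most abundant of the ligands in the IgG group. Control replicates 1 to 3 were at 0.408, 0.0704 and 0.309 FPKM, the IgG samples at 36.6, 66.7 and 30.8 FPKM, and the anti-S100a9 samples at 4.95, 3.34 and 1.97 FPKM. No groups overlapped, and the ranges were separated by wide gaps. The mean rose from 0.262 ± 0.173 to 44.7 ± 19.3 FPKM, a 170-fold ratio of means and a log2 difference of 7.01 (SE 0.49, adjusted p = 0.000281). With anti-S100a9 Ab it was 3.42 ± 1.49 FPKM, a log2 difference of −3.68 from the IgG group (SE 0.49, adjusted p = 0.00473). In the IgG group Cxcl5 was above 93.7% of all gene symbols by mean level, and in Control above 35.4%. No promoter of Cxcl5 or of Csf3 is shown.

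Relative to its mean, the summed level of the 4 ligands varied less across the 3 IgG mice than that of any single ligand. This did not hold in the anti-S100a9 group, where Cxcl1 (3.08 ± 0.311 FPKM) varied less than the sum. The sum was 72.1, 78.7 and 64.8 FPKM in IgG replicates 1 to 3 (71.9 ± 6.99), 1.28, 0.364 and 0.684 FPKM in Control (0.774 ± 0.462) and 7.93, 6.59 and 5.61 FPKM in the anti-S100a9 group (6.71 ± 1.17). A different ligand was at its highest in each IgG mouse: Cxcl1 and Cxcl2 in replicate 1, Cxcl5 in replicate 2 and Cxcl3 in replicate 3, with Cxcl2 nearly as high in replicate 3. The highest IgG sample was 3.72 times the lowest for Cxcl1, 1.76 times for Cxcl2, 12.0 times for Cxcl3 and 2.16 times for Cxcl5.

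The make-up of the sum is given as a description, without a test. In Control it consisted of Cxcl1 (67.8% ± 12.9) and Cxcl5 (32.2% ± 12.9) alone. The IgG group had 61.0% ± 20.6 Cxcl5, 22.7% ± 14.9 Cxcl1, 9.64% ± 13.0 Cxcl3 and 6.70% ± 2.35 Cxcl2. Cxcl5 made up 84.7% of the sum in IgG replicate 2, and Cxcl3 24.7% in IgG replicate 3. In the anti-S100a9 group Cxcl5 (49.4% ± 13.7) and Cxcl1 (47.3% ± 12.9) made up nearly the whole sum, and Cxcl2 and Cxcl3 stood at 2.50% ± 1.02 and 0.825% ± 0.205.

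**Figure D2:**
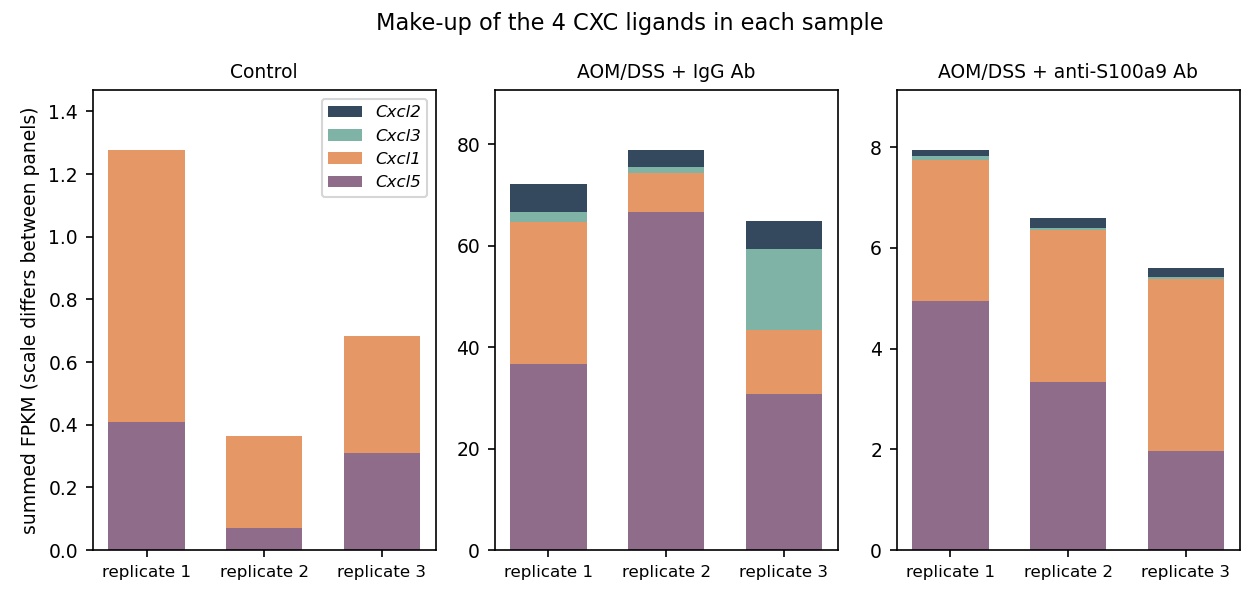
Stacked FPKM of Cxcl5, Cxcl1, Cxcl3 and Cxcl2 in each sample, with a separate linear scale for each group. The sums are alike in the 3 IgG samples (64.8 to 78.7 FPKM), while the parts differ, with Cxcl3 prominent only in replicate 3 of that group.

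By mean level in the IgG group the order was Cxcl5, Cxcl1, Cxcl3, Cxcl2, Cxcr2, Csf3 and Cxcr1. Cxcl5 lay above Cxcl1 in all 3 samples without overlap of their ranges. Cxcl3 overlapped Cxcl1, Cxcl2, Cxcr2 and Csf3, and Cxcr2 overlapped Csf3. In the anti-S100a9 group the order was Cxcl5, Cxcl1, Cxcr2, Cxcl2, Cxcl3, Csf3 and Cxcr1. Cxcl5 and Cxcl1 overlapped, as did Cxcl3, Csf3 and Cxcr1, and Csf3 also overlapped Cxcl2. Cxcr2 lay above Cxcl2 and Cxcl3 without overlap there, whereas in the IgG group it overlapped Cxcl3 and lay below Cxcl2. In Control, Cxcl1 and Cxcl5 overlapped at the top, and Cxcr2 followed, overlapping Cxcl5.

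The part of the IgG group's excess over Control that was present in the anti-S100a9 group is given as a description, without a test. By group means it was 0.883% for Cxcl3, 3.40% for Cxcl2, 5.38% for Csf3, 7.10% for Cxcl5, 16.5% for Cxcl1 and 38.7% for Cxcr2. Leaving out each IgG sample in turn gave 0.633% to 3.53% for Cxcl3, 2.92% to 3.74% for Cxcl2, 3.82% to 20.9% for Csf3, 6.14% to 9.44% for Cxcl5, 12.9% to 26.9% for Cxcl1 and 32.3% to 47.8% for Cxcr2. No difference between members was shown, as the ratios tested next state.

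**Figure D3:**
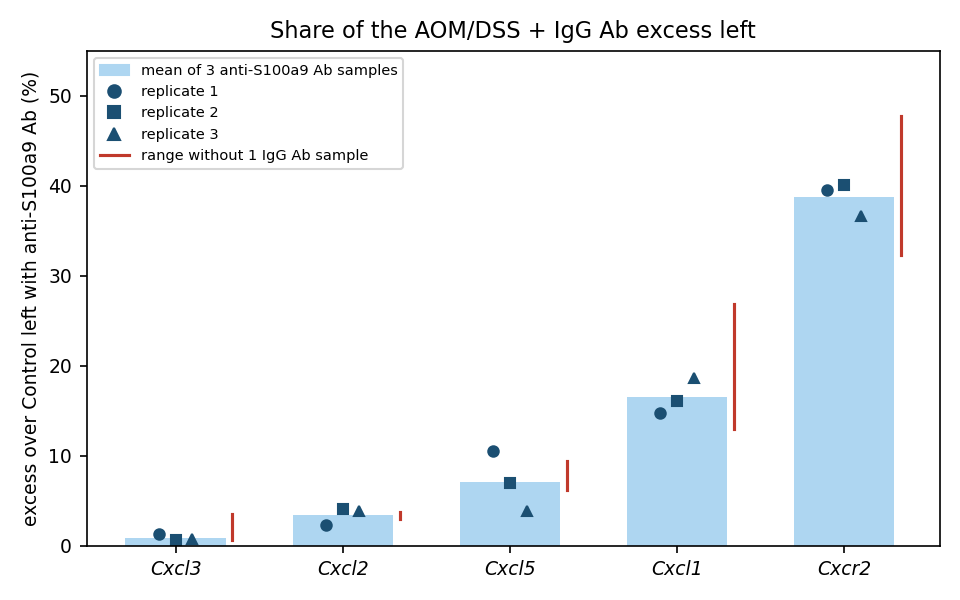
Share of the excess of the IgG group over Control that was present in the anti-S100a9 group, in percent; bars are the mean of 3 samples, points the single samples, and the lines beside the bars the range when 1 IgG sample is left out. The share runs from 0.883% for Cxcl3 to 38.7% for Cxcr2, and Csf3, with 1 sample at 0, is not drawn.

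Ratios of 2 transcripts within a sample were tested between the antibody groups with a two-sided exact permutation test, for which 3 samples against 3 cannot give a p below 0.1. The log2 ratio of Cxcl2 to Cxcl1 was −1.60 ± 0.64 (SD, n = 3) in the IgG group and −4.30 ± 0.38 in the anti-S100a9 group, without overlap (exact permutation p = 0.1). That of Cxcl3 to Cxcl1 was −2.02 ± 2.17 and −5.84 ± 0.66, also without overlap (exact permutation p = 0.1). The ratios of Cxcl5 to Cxcl1 and of Cxcr2 to Cxcl1 overlapped between the groups (exact permutation p = 0.2 each). Over the 5 ratios tested, 1 of them described with Csf3r below, every adjusted p was 0.2. As no p could fall below 0.1, these tests could not show that a ratio differed, and they do not show that the ratios were alike.

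Cxcr2, the receptor that neutrophils use to sense these ligands, was at 0.0831, 0.0275 and 0.0648 FPKM in Control replicates 1 to 3, at 1.00, 1.64 and 2.20 FPKM in the IgG group and at 0.672, 0.682 and 0.628 FPKM in the anti-S100a9 group. The 3 groups did not overlap, and the anti-S100a9 samples differed from each other by no more than 1.09 times. The mean rose from 0.0585 ± 0.0284 to 1.61 ± 0.603 FPKM, a log2 difference of 3.39 (SE 0.32, limma adjusted p = 0.000857). It was 0.661 ± 0.0286 FPKM with anti-S100a9 Ab, a log2 difference of −1.11 from the IgG group (SE 0.32, adjusted p = 0.0392). This last call was close to the threshold: it was lost when Control replicate 2, IgG replicate 2, IgG replicate 3 or any anti-S100a9 sample was left out (adjusted p 0.0521 to 0.107), with a smallest difference of −0.86 without IgG replicate 3.

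Cxcr1 was at 0.0289, 0 and 0 FPKM in Control replicates 1 to 3, at 0, 0.0526 and 0.125 FPKM in the IgG group and at 0.0262, 0.0539 and 0 FPKM in the anti-S100a9 group. Every group held a sample listed at 0 and all groups overlapped, so no difference was detectable at this depth.

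Csf3 was listed at 0 in Control replicates 1 and 2 and was at 0.0382 FPKM in Control replicate 3. It was at 0.269, 0.158 and 1.95 FPKM in the IgG group and at 0.0304, 0 and 0.133 FPKM in the anti-S100a9 group. Each IgG sample was above every sample of the other groups, with IgG replicate 3 far above the rest, and the other groups overlapped each other. The IgG group differed from Control by 2.38 (SE 0.71) and the anti-S100a9 group from the IgG group by −2.0 (SE 0.71) on the log2 scale, and neither passed (limma adjusted p = 0.0634 and 0.0734). Without IgG replicate 2 both passed (adjusted p = 0.0293 and 0.0351), and without IgG replicate 3 the differences were 1.47 and −1.09 (adjusted p = 0.079 and 0.127). The IgG replicate that was highest for Csf3 was also highest for Cxcl3. The ratio of Csf3 to Cxcl3 was 0.144, 0.119 and 0.122 in the IgG samples, where Csf3 rests on about 9, 6 and 63 fragments, and 0.368, 0 and 3.00 in the anti-S100a9 samples, where both genes rest on at most about 5.

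Whether tissue with anti-S100a9 Ab returned to the level of normal mucosa was examined against Control. No member passed there (0 of 6), where 0.00655% of all genes tested were called higher, and 4 of 6 had an unadjusted limma p under 0.05, as had 16% of all genes tested in either direction. Those 4 were also more than 2-fold higher on the scale of log2(FPKM + 0.1), as were 2.28% of all genes tested. For Cxcl2 this rests on the pseudocount, as it was listed at 0 in Control, and with a pseudocount of 1 it did not reach 2-fold. The log2 difference from Control was 2.49 for Cxcl1 (SE 0.48, unadjusted p = 0.000638, adjusted p = 0.278), 3.33 for Cxcl5 (SE 0.49, unadjusted p = 8.63e-05, adjusted p = 0.152) and 2.28 for Cxcr2 (SE 0.32, unadjusted p = 5.29e-05, adjusted p = 0.13). Cxcl2, listed at 0 in Control, had an unadjusted p of 0.00133 and an adjusted p of 0.299. For Cxcl3 (adjusted p = 0.69) and Csf3 (adjusted p = 0.805) neither p passed. For 5 of the 6 tested members every anti-S100a9 sample was above every Control sample, which held for 17.3% of all genes tested, and Csf3 was the exception. By ratio of means, Cxcl5 was 13.0 times, Cxcr2 11.3 times and Cxcl1 6.01 times the Control level, so a p that missed the threshold does not show equal levels.

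Most of the tested neutrophil marker transcripts moved with Cxcr2. In bulk tissue, fewer cells of a type and less RNA per cell cannot be told apart. Of 14 marker genes of neutrophils, 13 were tested. Of these, 8 were called higher in the IgG group than in Control, against 8.18% of all genes tested. Between the antibody groups 8 were called lower with anti-S100a9 Ab, against 14.4% of all genes tested. S100a9, which encodes the antibody's target, was at 0.602 ± 0.245 FPKM in Control, 168 ± 102 in the IgG group and 9.16 ± 3.20 in the anti-S100a9 group (adjusted p = 0.000252 and 0.00439). Trem1, a receptor of activated neutrophils and monocytes, was at 0.0955 ± 0.0245, 1.57 ± 0.502 and 0.225 ± 0.128 FPKM (adjusted p = 0.00212 and 0.00711).

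The neutrophil marker sum of IgG replicates 1 to 3 was 194, 644 and 781 FPKM, against 159 to 308 FPKM in Control and 200 to 287 FPKM in the anti-S100a9 group. Among the markers, 2 were high in every group: Ly6g, at 26.1 to 150 FPKM, and Cd177, at 48.0 to 218 FPKM, neither of which was called in any comparison. Without these 2 genes, a choice made after their values were seen, the sum was 1.20 to 4.03 FPKM in Control, 110 to 611 FPKM in the IgG group and 11.1 to 29.2 FPKM in the anti-S100a9 group. Of the granule genes of immature neutrophils, Mpo did not exceed 0.159 FPKM and Elane was listed at 0 in most samples. Camp (limma adjusted p = 0.368 and 0.632) and Ngp (adjusted p = 0.0507 and 0.193) were called in neither comparison, whereas Ltf and Prtn3 were called in both. Ltf was at 3.84, 1.75 and 0.704 FPKM in the IgG group and did not exceed 0.407 FPKM elsewhere (adjusted p = 0.0189 and 0.0198). Prtn3 was at 0.0876 ± 0.0285, 0.590 ± 0.318 and 0.116 ± 0.0712 FPKM in Control, the IgG group and the anti-S100a9 group (adjusted p = 0.039 and 0.0374). Within the IgG group, replicate 1 had the lowest neutrophil sum and the highest Cxcl1, and replicate 3 had the highest sum and the highest Cxcl3, Csf3 and Cxcr2. The part of neutrophil number in these results was not tested.

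Csf3r, the G-CSF receptor of neutrophils and their precursors, was at 0.914 ± 0.251 FPKM in Control, 3.19 ± 0.795 in the IgG group and 1.88 ± 0.414 in the anti-S100a9 group. It was higher in the IgG group than in Control (1.70 on the log2 scale, SE 0.30, adjusted p = 0.0111), and the difference of −0.73 between the antibody groups did not pass (adjusted p = 0.112). Per unit of Csf3r, Cxcr2 was at 0.0440 to 0.0770 in Control, 0.438 to 0.588 in the IgG group and 0.317 to 0.448 in the anti-S100a9 group. Both AOM/DSS groups lay above Control without overlap and overlapped each other (log2 ratio, exact permutation p = 0.2).

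**Figure D4:**
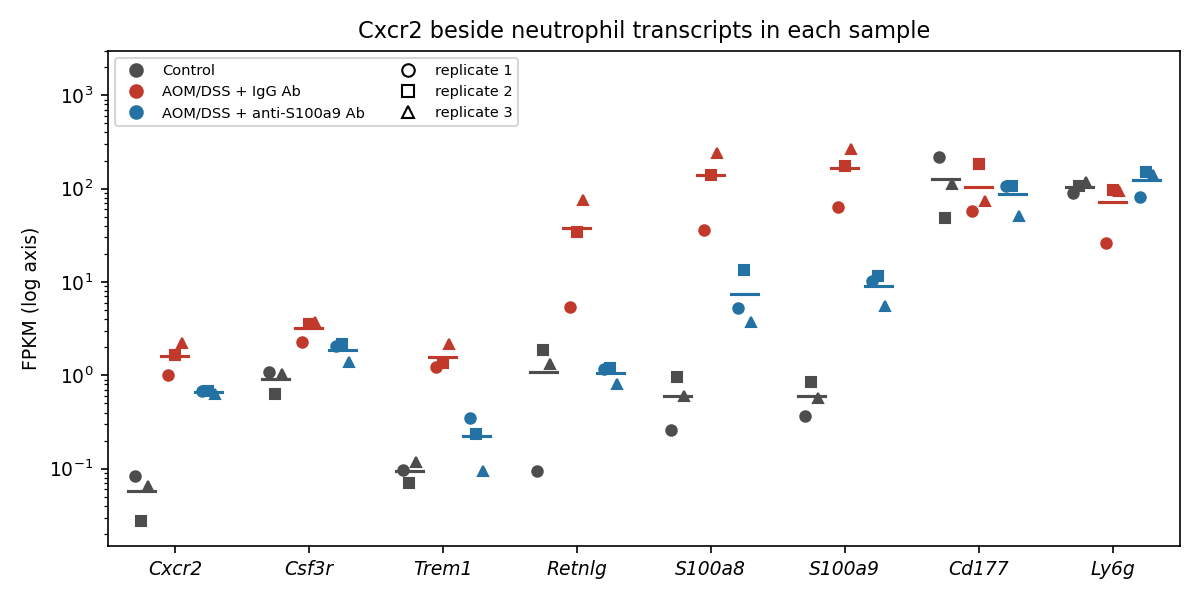
FPKM of Cxcr2 and 7 transcripts known from neutrophils in each sample, on a log axis; marker shapes are replicates and short lines group means. Cxcr2, Trem1, Retnlg, S100a8 and S100a9 are highest in the IgG samples, whereas Cd177 and Ly6g are high in all 3 groups and overlap between them.

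Markers of other cell types differed between the groups as well. Over all genes tested, 8.18% were called higher in the IgG group than in Control and 14.4% lower with anti-S100a9 Ab. Squamous epithelium markers were called higher in the IgG group than in Control for 3 of 8 genes, of which 6 were tested, and lower with anti-S100a9 Ab for 4, with sums of 2.95 to 4.66 FPKM in Control, 9.80 to 46.5 in the IgG group and 2.78 to 4.45 in the anti-S100a9 group. Fibroblast markers were called higher for 4 of 6 genes and then lower for 3, with sums of 412 to 497, 616 to 2093 and 559 to 734 FPKM. Macrophage markers were called by limma in neither comparison (0 of 9, with 0 and 1 at an unadjusted p under 0.05), and their sums of 483 to 766, 391 to 784 and 499 to 684 FPKM overlapped. Their part in the chemokine differences was not tested.

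Of the wider pathway, 90 genes in 9 lists were present in the files and 87 were tested. In the IgG group 15 were higher than in Control, against 8.18% of all genes, and 1 was lower, against 3.01%. Between the antibody groups 8 of 87 were lower with anti-S100a9 Ab, against 14.4% of all genes, and 2 were higher, against 6.72%. Leaving out Control replicate 2 lowered the 15 to 6, and leaving out an anti-S100a9 sample, or IgG replicate 1 or 3, lowered the 8 to between 1 and 5. The same fits called fewer of all genes too, 511 higher in place of 1250, and between 428 and 1157 lower in place of 2193. Between the anti-S100a9 group and Control limma called 0 of 87, and 15 had an unadjusted p under 0.05.

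Of the cytokines known to induce these chemokines, 4 of 7 tested were higher in the IgG group than in Control, against 8.18% of all genes tested. They were Il1a (2.84 on the log2 scale, SE 0.54, adjusted p = 0.014), Tnf (2.59, SE 0.64, adjusted p = 0.0358), Il1b (2.13, SE 0.42, adjusted p = 0.0155) and Osm, the cytokine oncostatin M (1.75, SE 0.42, adjusted p = 0.0313). Between the antibody groups 1 of 7 was called lower, near the share of 14.4% over all genes. Il1b was at 3.39 ± 1.55 FPKM in Control, 14.7 ± 5.49 in the IgG group and 4.97 ± 2.11 in the anti-S100a9 group, and alone of the list was called lower with the antibody (−1.56, SE 0.42, adjusted p = 0.0322). Tnf was at 8.93 ± 3.68 FPKM in the IgG group and 2.43 ± 0.975 with anti-S100a9 Ab (−1.83, SE 0.64), and did not pass (adjusted p = 0.0709). Il17a, which encodes a cytokine of T helper cells that raises these ligands in epithelium, was at 2.59, 0.588 and 0 FPKM in IgG replicates 1 to 3 and did not exceed 0.116 FPKM elsewhere. Il17a was called in neither comparison (limma adjusted p = 0.187 and 0.131). It was highest in the IgG mouse with the most Cxcl1 and listed at 0 in the mouse with the most Cxcl3 and Csf3.

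Of the receptors for these cytokines and their adaptors, 3 of 11 tested genes were higher in the IgG group than in Control, against 8.18% of all genes tested. They were Il1r1, the signalling receptor of interleukin-1 (1.36, SE 0.24, adjusted p = 0.0112), Osmr, a subunit of the oncostatin M receptor (1.07, SE 0.23, adjusted p = 0.0232), and Tnfrsf1b, a receptor of TNF (1.02, SE 0.20, adjusted p = 0.0173). Between the antibody groups limma called 0 of 11, and 1 had an unadjusted p under 0.05. Osmr was at 4.76 ± 0.650 FPKM in the IgG group and 4.63 ± 1.28 with the antibody, a log2 difference of −0.06 (SE 0.23).

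Among the NF-κB and C/EBP factors and their feedback regulators, 2 of 14 were higher in the IgG group than in Control and 3 of 14 lower with anti-S100a9 Ab, counts near the shares of 8.18% and 14.4% over all genes. Bcl3, an atypical IκB protein that works in the nucleus, was at 29.5 ± 10.2, 68.1 ± 16.1 and 30.0 ± 4.31 FPKM in Control, the IgG group and the anti-S100a9 group (adjusted p = 0.0225 and 0.0215). Rela, the p65 subunit of NF-κB, was at 22.8 ± 3.75, 34.7 ± 3.45 and 22.2 ± 2.73 FPKM (adjusted p = 0.0429 and 0.0263). Cebpb, a factor of inflammatory gene induction, was called only between the antibody groups, at 43.7 ± 18.3 and 12.3 ± 1.52 FPKM (−1.74, SE 0.43, adjusted p = 0.0256). Nfkbia, the inhibitor IκBα, named here after its values were seen, was at 58.3 ± 10.8, 60.7 ± 11.6 and 62.5 ± 10.6 FPKM (adjusted p = 0.874 and 0.889).

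Other chemokines of the CXC family did not move as a group. Of 13 genes outside the CXCR2 axis, Cxcl14, a chemokine made by epithelium and stroma, was at 17.7 ± 0.655 FPKM in Control, 139 ± 64.8 in the IgG group and 18.1 ± 5.25 in the anti-S100a9 group. It was called in both comparisons (2.86, SE 0.32, adjusted p = 0.00171, and −2.88, SE 0.32, adjusted p = 0.00294). Cxcl16, which attracts CXCR6-bearing T cells, was called higher in the IgG group than in Control (0.88, SE 0.24, adjusted p = 0.049), with means of 13.0 ± 3.69 and 23.6 ± 3.80 FPKM. The remaining 11 of the list were called in neither. Over all genes tested, 8.18% were called higher against Control and 14.4% lower with anti-S100a9 Ab.

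Of the genes lying among the ligands on chromosome 5, none passed the test. Ppbp, a platelet chemokine that also binds CXCR2 once processed, was at 0.175, 0.151 and 0.0459 FPKM in Control, 0.324, 0.377 and 1.44 FPKM in the IgG group and 0, 0.484 and 0.126 FPKM in the anti-S100a9 group. Every IgG sample was above every Control sample, and the antibody groups overlapped. It was not called against Control (1.65, SE 0.70, adjusted p = 0.155) nor between the antibody groups (−1.52, SE 0.70, adjusted p = 0.141). Pf4, the other platelet chemokine there, was at 7.93 ± 0.290, 7.50 ± 5.71 and 4.87 ± 0.885 FPKM and was called in neither (adjusted p = 0.625 and 0.765). Cxcl15, a chemokine known from lung, was listed at 0 in Control, at 0.0531, 0.101 and 0.0870 FPKM in the IgG group and at 0, 0 and 0.0164 FPKM in the anti-S100a9 group. Like Cxcl2 and Cxcl3, it was higher in every IgG sample than in any other sample, at a far lower level. Unlike theirs, its anti-S100a9 and Control samples overlapped, and it was not tested. Beyond the cluster, Mthfd2l, next to Cxcl2, was higher in the IgG group than in Control (0.96, SE 0.22, limma adjusted p = 0.0284). Its difference between the antibody groups was −0.72 (SE 0.22, adjusted p = 0.05). Ereg, an EGF receptor ligand, was at 2.45 ± 0.613 FPKM in Control and 8.97 ± 3.96 in the IgG group (1.74, SE 0.36, adjusted p = 0.0196). It did not pass between the antibody groups (adjusted p = 0.112). Epgn was called in neither (adjusted p = 0.254 and 0.544). Rassf6, on the other side, was called only between the antibody groups, lower with anti-S100a9 Ab (−0.59, SE 0.14, adjusted p = 0.0224). Pf4 and these flanking genes are named for their position, after their values were seen.

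Ackr1, the scavenger of CXC chemokines on venules and red cells, was at 6.76 ± 0.833, 5.86 ± 3.76 and 8.35 ± 3.35 FPKM and was called in neither comparison (adjusted p = 0.585 and 0.339). Among 14 genes of CXCR2 signal transduction only Arrb1, which encodes the β-arrestin that uncouples activated receptors, was called. It was lower in the IgG group than in Control (−0.85, SE 0.19, adjusted p = 0.024) and higher with anti-S100a9 Ab (0.97, SE 0.19, adjusted p = 0.0142), at 14.1 ± 0.699, 7.93 ± 2.01 and 15.3 ± 0.618 FPKM. The shares of all genes called in these directions were 3.01% and 6.72%. Of the 9 other chemoattractant genes, 1 was called lower with the antibody, near the share of 14.4% over all genes. It was Fpr1, a neutrophil receptor for formyl peptides (−2.66, SE 0.80, adjusted p = 0.0457). Csf2ra, a chain of the GM-CSF receptor, was also lower (−0.67, SE 0.17, adjusted p = 0.0305).

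Of 12 adhesion molecules by which neutrophils leave vessels, 3 were higher in the IgG group than in Control, against 8.18% of all genes tested. Between the antibody groups 1 was lower and 1 higher with anti-S100a9 Ab, against 14.4% and 6.72% of all genes tested. Selp, the P-selectin on which neutrophils roll, was at 0.739 ± 0.147, 3.18 ± 0.521 and 1.92 ± 0.658 FPKM in Control, the IgG group and the anti-S100a9 group (1.97, SE 0.28, adjusted p = 0.00463 against Control). Sele, the related E-selectin, was at 0.0127 ± 0.0220, 0.195 ± 0.0462 and 0.185 ± 0.112 FPKM (adjusted p = 0.0358 against Control). Neither selectin was called between the antibody groups (adjusted p = 0.0931 and 0.833). Cd44, an adhesion receptor of leukocytes and epithelium, was higher in the IgG group than in Control (1.36, SE 0.24, adjusted p = 0.0107) and lower with the antibody (−0.83, SE 0.24, adjusted p = 0.0414). Vcam1, which binds integrins of lymphocytes and monocytes, was higher with the antibody, at 17.8 ± 2.69 against 7.65 ± 3.22 FPKM (1.30, SE 0.34, adjusted p = 0.0296).

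**Figure D5:**
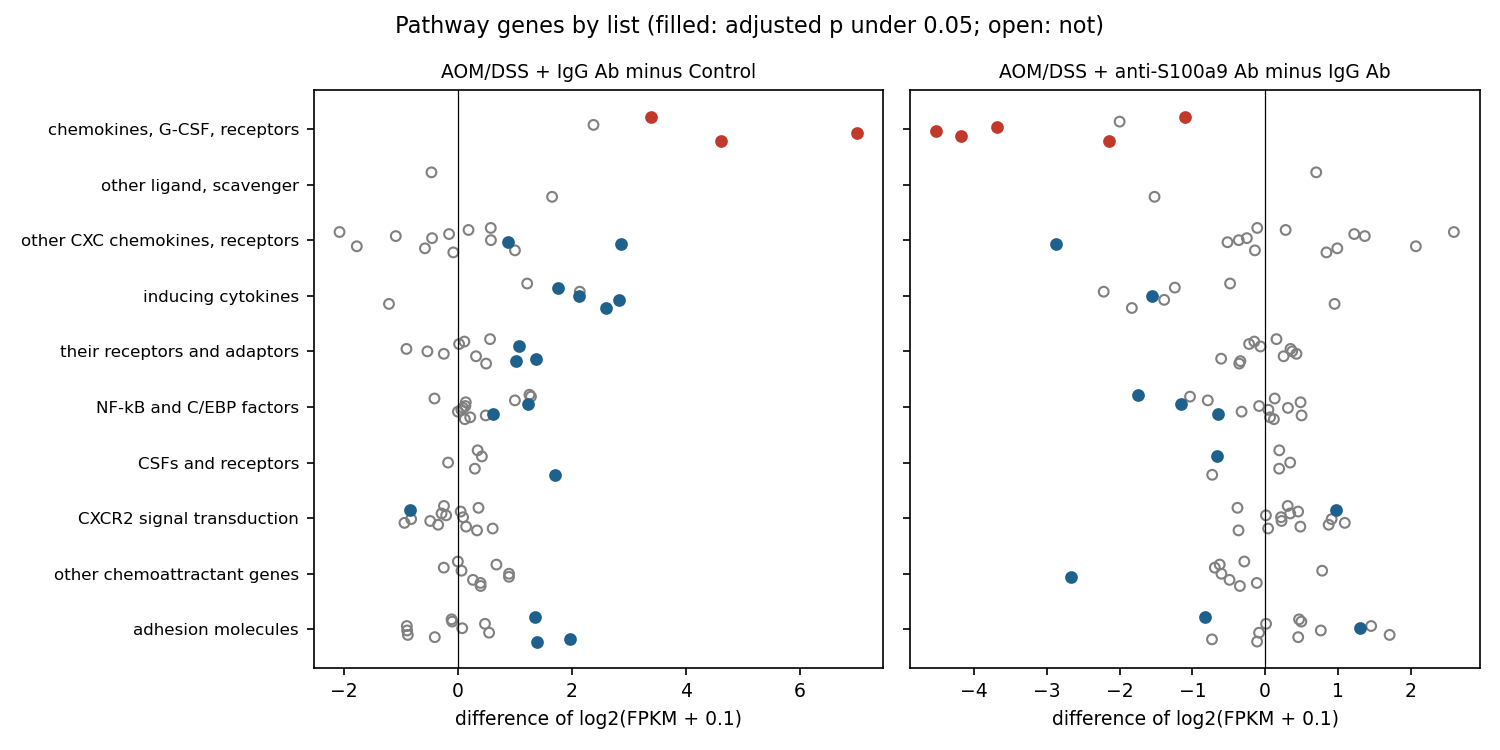
Differences of log2(FPKM + 0.1) for the tested chemokine, G-CSF and receptor genes (top line, red) and the 9 pathway lists (blue or grey), with 1 point for each gene; filled points have an adjusted p under 0.05. Cxcl2 and Cxcl3, listed at 0 in Control, are left out of the left panel, and in the right panel the chemokine genes lie between −4.52 and −1.11.

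Likeness of pattern was described by Pearson's r of log2(FPKM + 0.1) over the 9 samples, among genes with a mean of at least 1 FPKM in a group. The samples share their groups, so that many genes reach a high r, and no p is given. Closest to Cxcl1 were Ctps (r = 0.976), Plaa (r = 0.974) and Itgb8 (r = 0.974). Cxcl2 was followed most closely by Fosl1, which encodes the AP-1 subunit Fra-1 (r = 0.986), Spp1, which encodes osteopontin (r = 0.984), and Slc16a3, a lactate transporter (r = 0.983). Nearest to Cxcl3 were Col18a1 (r = 0.991), Asns (r = 0.985) and Acsbg1 (r = 0.979). For Csf3 they were Acadl (r = 0.984), the collagenase gene Mmp13 (r = 0.981) and Ctsl (r = 0.969).

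The genes most like Cxcl5 were Gm10104 (r = 0.977), Myl7 (r = 0.976) and Lgi2 (r = 0.973). Those most like Cxcr2 were Lilrb4a (r = 0.974), Ostm1 (r = 0.971) and S100a9 (r = 0.961). Mmp13 was at 32.8 FPKM in IgG replicate 3 and at 4.73 and 3.16 FPKM in IgG replicates 1 and 2, the order seen for Csf3. Between pairs of the members r ran from 0.672 for Cxcl5 and Csf3 to 0.949 for Cxcl5 and Cxcr2.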

How the data were processed

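The deposited values are FPKM per gene symbol, made by the authors from sequencing of total RNA. The submitters' processing notes name TopHat, Cufflinks, HTSeq, DESeq and GRCm38, with no versions or roles. The files do not state the unit, which was taken from the values. Each sample held 21544 rows, of which 46 repeated a symbol and were added to its value. Genes reaching 0.1 FPKM in no fewer than 3 samples were tested on log2(FPKM + 0.1) with limma 3.58.1 (trended eBayes, all 9 samples, group as the only factor, R 4.3.3). The fit was tested on simulated data first. Alternatives were another pseudocount, filter, scaling, trend or sample set, the replicate number as a block, and each sample left out. Members, pathway lists and marker lists were chosen with earlier results of these data known. Named beyond the members were up to 4 called genes a list and direction with the largest change, 7 genes fixed by name, and the 3 genes most like each member. As the deposited values are not counts, no count test was run. Fragment numbers derived from value steps are estimates, and the precision of low values is limited by counting error. Further marker lists (T cell, B and plasma cell, endothelium, smooth muscle, adipocyte) were checked. In the IgG group against Control only adipocyte genes were called, 3 of 4 lower, against 3.01% of all genes tested. Between the antibody groups 1 of 5 T cell and 1 of 4 smooth muscle genes were called. Both were higher with anti-S100a9 Ab, as were 6.72% of all genes tested.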

Additional observations from a re-analysis of the deposited data

How the results depend on the processing

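The direction of every tested member held in all alternatives run. Against Control, the number of members called higher in the IgG group was 4 to 6 across them. The 5 members called lower with anti-S100a9 Ab were 3 to 5 when each sample was left out, and the lowest count came without IgG replicate 3 or any anti-S100a9 sample. Calls lower over all genes fell in these fits too, from 2193 to 1013 without IgG replicate 3 and to between 428 and 854 without an anti-S100a9 sample. The 0 members called between the anti-S100a9 group and Control became 1 with a pseudocount of 0.01 (Cxcl2) and 4 by the study's thresholds (unadjusted p under 0.05, more than 2-fold), and were 0 to 1 when each sample was left out (Cxcr2 without IgG replicate 1). Cxcl2 is among those 4, and whether it was more than 2-fold higher depends on the pseudocount. With only the 2 groups compared in the fit, pathway genes higher in the IgG group than in Control fell from 15 to 6 and those lower from 1 to 0. Leaving out each sample gave 6 to 16 pathway genes higher and 0 to 2 lower against Control, and 0 to 6 higher and 1 to 10 lower between the antibody groups. The causes were not tested. Cxcr2 between the antibody groups also missed the threshold with a pseudocount of 0.01, a filter of 1 FPKM, median-of-ratios scaling, the replicate block or only the 2 groups (adjusted p 0.0557 to 0.0876), and Cxcl3 against Control with a pseudocount of 1 (adjusted p = 0.0518). The size of low members depends on the pseudocount: with 0.01 and with 1 it was 4.60 and 1.28 for Cxcr2 and 4.74 and 0.69 for Csf3 against Control, and −4.79 and −2.27 for Cxcl2, −5.74 and −2.20 for Cxcl3, −1.20 and −0.63 for Cxcr2 and −3.54 and −0.63 for Csf3 between the antibody groups. Against Control in the anti-S100a9 group it was 3.86 and 1.76 for Cxcl5, 2.72 and 1.45 for Cxcl1 and 3.39 and 0.65 for Cxcr2. Quantile normalization changed the calls over all genes from 1250 higher and 460 lower to 947 and 631 against Control, and from 1026 higher and 2193 lower to 1389 and 1706 between the antibody groups, and median-of-ratios scaling gave 987 and 528, and 1192 and 1704. Quantile normalization moved the median difference of all genes against Control from 0.09 to −0.03, and the count of members called stayed at 5 in both comparisons.

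Replicate numbers are shared between the groups, but same-numbered samples did not deviate together (r from −0.187 to 0.249) and not every sample correlated best with its own number, so the numbers were not taken as pairs. With the replicate number as a block, 6 members were called higher against Control, Csf3 passing in both comparisons (adjusted p = 0.033 and 0.0356), and 5 lower with the antibody. The block called 2 pathway genes lower against Control in place of 1.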
